A study of Mus musculus with 89 samples.

Results

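Ldhb and Ldha encode the subunits of the main lactate dehydrogenases of mouse cells, and their transcripts were followed here in embryonic stem (ES) cells that had lost Esrrb, Nr5a2 or both nuclear receptors. The members are the rows with these symbols, 2 of the 54146 gene rows in the deposited tables, and they were selected on the measured level of Ldhb, which fell strongly after Esrrb loss in 2i/LIF. Values of that contrast, -E against +E+N in 2i/LIF, are therefore given as a description with no test for either gene, as are the Ldhb values of every other 2i/LIF contrast that shares its +E+N or -E libraries. The medium FCS/LIF and the contrast -E-N against -N were not used in the choice and carry the tests of Ldhb. Ldha was tested there too, and in the 2i/LIF contrasts -N and -E-N against +E+N, whose +E+N libraries the choice used. RNA-seq libraries of 20 samples, of 89 in the series, hold the data, and the remaining samples are ChIP-seq and were not analysed here.

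All groups carried a knockout of the endogenous Esrrb gene rescued by a doxycycline (Dox)-inducible Esrrb transgene, a line named EKOiE. The +E+N group was EKOiE kept in Dox at 1 µg/ml, and -E was the same line 2 days after Dox withdrawal. The -N group was EKOiE NrKO, in which both Nr5a2 alleles are disrupted at the exon of the DNA-binding domain, kept in Dox, and -E-N was EKOiE NrKO 2 days after Dox withdrawal. Each state was grown in FCS/LIF, medium with 10% foetal calf serum and the cytokine LIF (2 libraries per state), or without serum in 2i/LIF, which combines LIF with inhibitors of MEK (PD0325901, 1 µM) and Gsk3 (CHIR99021, 3 µM) (3 libraries per state). Every Esrrb-depleted group was without Dox and every other group with it, so Esrrb loss cannot be told apart from the removal of Dox. Nr5a2 loss cannot be told apart from other properties of the NrKO derivative, and the medium cannot be told apart from the culture batch.

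Lactate dehydrogenase is a tetramer that interconverts pyruvate and lactate with NADH and NAD+ as cofactors. The Ldha product is the M subunit, abundant in skeletal muscle and in glycolytic cells, and the Ldhb product is the H subunit, abundant in the heart and in oxidative tissues. Tetramers of any mixture of the subunits form, so the ratio of the transcripts is often read beside the isoenzyme pattern of a tissue, although transcripts are not protein. Esrrb and Nr5a2 are orphan nuclear receptors that bind DNA as monomers at closely related sequences and are part of the ES cell transcription factor network.

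Ldhb (ENSMUSG00000030246) lies on the minus strand of chr6:142490249-142507957 and Ldha (ENSMUSG00000063229) on the plus strand of chr7:46841475-46855627 in mm10. Their spans are 17709 and 14153 bp. The first listed transcript of each gene, Ldhb-201 and Ldha-201, has 8 exons. The coding parts of these transcripts span 334 and 332 codons, the stop codon not counted in the annotation.

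The promoter windows are shown because the receptors recognise a short extended half-site, so that a reader can see which letters lie next to each start. RefSeq promoter entries (GRCm38.p6, 250 bases before to 50 after a start) matched both genes, with 1 entry for Ldhb (chr6:142507908-142508207, minus strand) and 2 for Ldha (chr7:46845554-46845853 and chr7:46846832-46847131, plus strand). Capitals in the Ldhb window mark the reverse complement of TCAAGGACA, and the Ldha windows hold no capitals.
Ldhb promoter: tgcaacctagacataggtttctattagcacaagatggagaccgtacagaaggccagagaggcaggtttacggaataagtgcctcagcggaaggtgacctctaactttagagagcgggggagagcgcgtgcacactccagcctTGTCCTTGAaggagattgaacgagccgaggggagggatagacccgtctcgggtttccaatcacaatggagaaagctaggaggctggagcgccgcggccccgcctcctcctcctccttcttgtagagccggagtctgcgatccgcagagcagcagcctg
Ldha promoter, upstream start: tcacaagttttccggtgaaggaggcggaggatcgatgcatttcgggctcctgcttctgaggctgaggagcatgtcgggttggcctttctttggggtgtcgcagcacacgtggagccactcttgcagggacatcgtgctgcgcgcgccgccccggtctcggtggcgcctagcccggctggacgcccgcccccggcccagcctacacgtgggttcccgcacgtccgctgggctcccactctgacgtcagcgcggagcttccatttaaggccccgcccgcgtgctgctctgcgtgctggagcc
Ldha promoter, downstream start: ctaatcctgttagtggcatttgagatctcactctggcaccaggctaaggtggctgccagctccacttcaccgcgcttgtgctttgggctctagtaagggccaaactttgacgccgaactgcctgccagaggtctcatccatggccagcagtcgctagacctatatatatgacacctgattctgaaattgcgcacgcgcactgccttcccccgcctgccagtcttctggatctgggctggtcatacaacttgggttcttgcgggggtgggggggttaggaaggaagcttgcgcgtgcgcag
TCAAGGTCA and TCAAGGCCA, the Esrrb-type and Nr5a2-type letters of the extended half-site, were searched on both strands. Neither was found in the 3 windows, against 0.423% and 0.591% of the 32851 promoter windows in the table. With any base at the seventh place (TCAAGGNCA, a search that includes both of those forms and was added after seeing the data), the Ldhb window held 1 match, beginning 108 bases before the start, and 1.62% of all windows held one. In the 10001 bases centred on the annotated start, Ldhb also held TCAAGGCCA on its reverse strand at chr6:142509706-142509714, beginning 1757 bases before the start. With 16 bases on either side and the match in capitals, it reads as follows.
Ldhb upstream match: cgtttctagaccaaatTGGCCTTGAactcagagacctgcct
Of 21893 windows of that length at protein-coding genes, 24.3% held TCAAGGTCA, 42.9% held TCAAGGCCA and 66.7% held TCAAGGNCA. The window of that length at the annotated Ldha start held no match to any of these forms. That start lies upstream of both Ldha promoters shown, so the window is centred on neither. A match in these letters describes the sequence and is not evidence of binding.

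Library totals ran from 26653035 to 45443379 estimated counts (FCS/LIF from 36514172, 2i/LIF up to 32526534). Esrrb, in TPM, a level scaled for transcript length and library size, was at 163 to 249 in FCS/LIF +E+N, 155 to 196 in -N, 38.9 to 40.1 in -E and at 16.8 to 19.2 in -E-N. In 2i/LIF Esrrb was at 187 to 273 TPM in +E+N, 113 to 133 in -E, 133 to 218 in -N and 31.1 to 49.9 in -E-N, and these counts do not separate the transgene from the disrupted endogenous locus. Nr5a2 was at 12.9 to 13.7 TPM in FCS/LIF +E+N and 8.42 in both -N libraries, and at 19.7 to 24.5 TPM in 2i/LIF +E+N and 18.9 to 22.3 in -N, values that include transcript from the disrupted alleles and do not check the knockout. After Dox withdrawal Nr5a2 was lower, at 7.58 to 7.83 TPM in FCS/LIF -E and 3.16 to 3.36 in -E-N, and at 13.8 to 15.1 TPM in 2i/LIF -E and 6.22 to 14.3 in -E-N, so that Nr5a2 transcript moved together with Esrrb in the comparisons described next, and its part in them was not tested. The summed level of 8 ES cell markers was 1295 TPM or more in every library, whereas the summed levels of 5 fibroblast or feeder markers and 5 primitive endoderm markers did not exceed 6.86 and 9.15 TPM.

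In FCS/LIF, Ldhb was at 622 and 648 TPM in the 2 +E+N libraries. After Esrrb loss it was at 112 and 110 TPM. These 4 libraries form well separated pairs, and the replicates of a state differed far less than the states. The -N libraries had 525 and 504.3 TPM. The -E-N libraries had 111 and 101 TPM. The -N pair lay below the +E+N pair and close to it, whereas the -E-N range overlapped that of -E.

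In 2i/LIF, Ldhb was at 145, 96.8 and 108 TPM in +E+N. It was at 13.4, 13.6 and 9.91 TPM in -E, the lowest values of the series, from 346, 323 and 242 estimated counts. The -E libraries did not overlap with any other group. The -N libraries had 156, 112 and 120 TPM. The -E-N libraries had 31.9, 29.6 and 26.3 TPM. The -N range overlapped that of +E+N, and the -E-N libraries lay between those of -E and the Dox-treated states.

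Ldha was at 1211 and 1152 TPM in FCS/LIF +E+N. It was at 1534 and 1465 TPM in -E. The -E pair was the highest of the series. The -N libraries had 1225 and 1162 TPM. The -E-N libraries had 1207 and 1106 TPM. Both ranges overlapped that of +E+N.

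In 2i/LIF, Ldha was at 304, 596 and 538 TPM in +E+N. It was at 600, 936 and 874 TPM in -E. All 3 -E values lay above the +E+N values, the lowest -E library by a margin smaller than the spread in either state. The -N libraries had 529, 539 and 626 TPM. The -E-N libraries had 722, 772 and 921 TPM. The -E-N range lay above that of -N and overlapped that of -E.

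**Figure D1:**
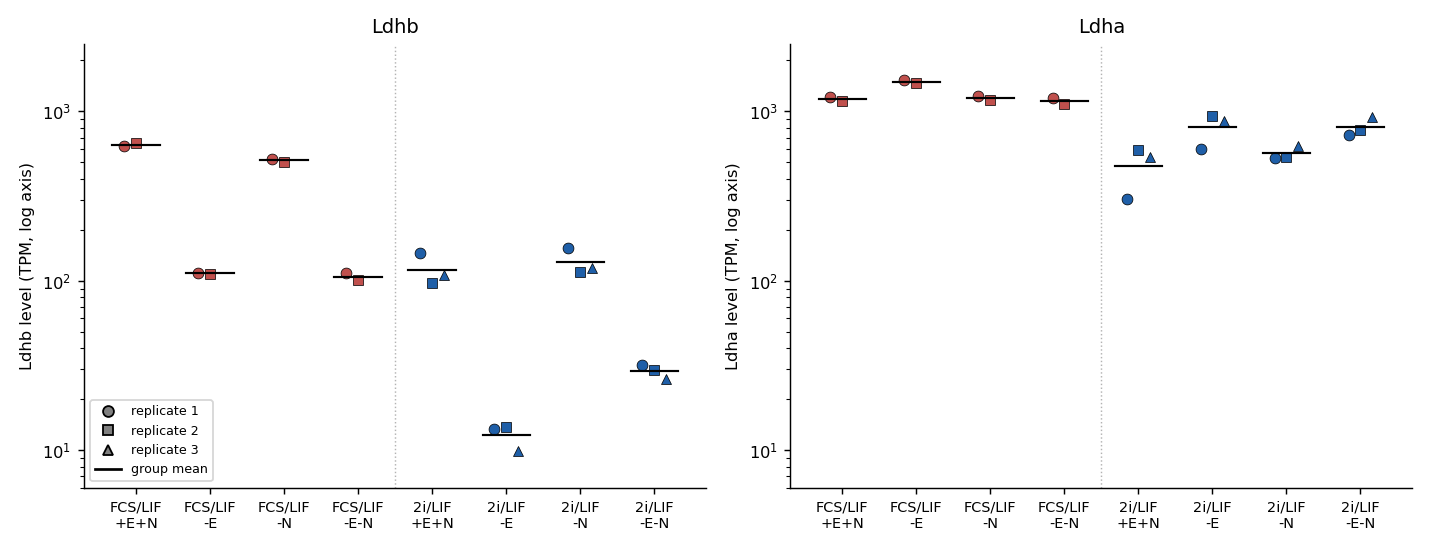
Levels of Ldhb (left) and Ldha (right) in TPM on a log axis, 1 point per library with the marker giving the replicate number and a bar at the group mean, for the 4 states in FCS/LIF (red) and 2i/LIF (blue). Ldhb drops to 110 and 112 TPM in FCS/LIF -E and to between 9.91 and 13.6 TPM in 2i/LIF -E, whereas Ldha is at 1106 TPM or more in FCS/LIF.

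Ordered by group mean, Ldhb ran from FCS/LIF +E+N (635 ± 18.7 TPM, SD, n = 2) and FCS/LIF -N (515 ± 14.7) to 2i/LIF -N (129 ± 23.3, n = 3), 2i/LIF +E+N (117 ± 25.3), FCS/LIF -E (111 ± 1.55), FCS/LIF -E-N (106 ± 6.76), 2i/LIF -E-N (29.3 ± 2.84) and 2i/LIF -E (12.3 ± 2.07). In TPM, neighbours in this order overlapped from 2i/LIF -N down to FCS/LIF -E-N and so did not differ beyond their spread, and the other steps were free of overlap. Ldhb after Esrrb loss in FCS/LIF thus lay within the range of the 2i/LIF +E+N libraries. The order of Ldha ran from FCS/LIF -E (1499 ± 48.4 TPM) to FCS/LIF -N (1194 ± 43.9), +E+N (1181 ± 41.4) and -E-N (1156 ± 71.2), and then to 2i/LIF -E-N (805 ± 103), -E (803 ± 179), -N (565 ± 53.3) and +E+N (479 ± 154). Here, in TPM, only the steps from FCS/LIF -E to -N and from FCS/LIF -E-N to 2i/LIF -E-N were free of overlap. The levels of both genes were higher in FCS/LIF in every state, given here side by side and untested. The ratio of group means, FCS/LIF to 2i/LIF, was 5.45, 8.99, 3.98 and 3.62 for Ldhb in +E+N, -E, -N and -E-N, and 2.47, 1.87, 2.11 and 1.44 for Ldha.

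Ldha was the more abundant transcript in all 20 libraries. In FCS/LIF the ratio of Ldhb to Ldha TPM was 0.514 and 0.563 in +E+N. It was 0.0728 and 0.0748 in -E. Ldhb thus made 33.9 and 36.0% of the summed lactate dehydrogenase transcripts in +E+N, and 6.79 and 6.96% in -E. The -N libraries had ratios of 0.429 and 0.434. The -E-N libraries had ratios of 0.0917 and 0.0914, a little above those of -E without overlap. On the log2 scale the ratio was lower by 2.87 in -E than in +E+N, a 7.29-fold difference, by 2.56 in -E-N than in +E+N, by 2.24 in -E-N than in -N, a 4.71-fold difference, and by 0.32 in -N than in +E+N. The same-numbered differences had SDs of 0.0667, 0.0963, 0.0153 and 0.0811 (n = 2). FCS/LIF libraries share only a number, so these SDs depend on the numbering and do not measure a paired spread. The states did not overlap in any of these 4 comparisons, and the exact permutation test (two-sided) gave p = 0.333 for each, the smallest value that 2 against 2 libraries allow. The ratio in -E-N was 1.24 times that in -E, given as values with no test.

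In 2i/LIF the ratio was 0.477, 0.163 and 0.200 in +E+N and 0.0223, 0.0146 and 0.0113 in -E, a log2 difference of -4.01 that the choice of members used. Ldhb made 13.98 to 32.3% of the summed transcripts in +E+N and 1.12 to 2.18% in -E. The -N libraries had ratios of 0.295, 0.209 and 0.191. The -E-N libraries had ratios of 0.0442, 0.0383 and 0.0285. In -E-N against -N the ratio was 6.24-fold lower (log2 difference -2.64, with same-numbered differences of -2.74, -2.45 and -2.74), lower in 3 of 3 same-numbered pairs, with an exact permutation p = 0.1 (two-sided), the smallest that 3 against 3 libraries allow. Against the -E libraries, the -E-N ratio was 2.36 times as high, as a description. In -N the range of the ratio overlapped that of +E+N.

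The sum of the Ldhb and Ldha levels was lower after Dox withdrawal in FCS/LIF and not in 2i/LIF, given as values without a test. The FCS/LIF sums were 1833 and 1801 TPM in +E+N and 1645 and 1575 in -E. They were 1317 and 1207 TPM in -E-N. The -N libraries had 1750 and 1667, so that Dox-treated and Dox-withdrawn states did not overlap. The 2i/LIF sums were 449, 692 and 645 TPM in +E+N, against 613, 950 and 884 in -E. The -N libraries had sums of 684, 652 and 745 TPM, against 754, 801 and 947 in the -E-N libraries. There the -E range overlapped that of +E+N and the -E-N range lay above that of -N.

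**Figure D2:**
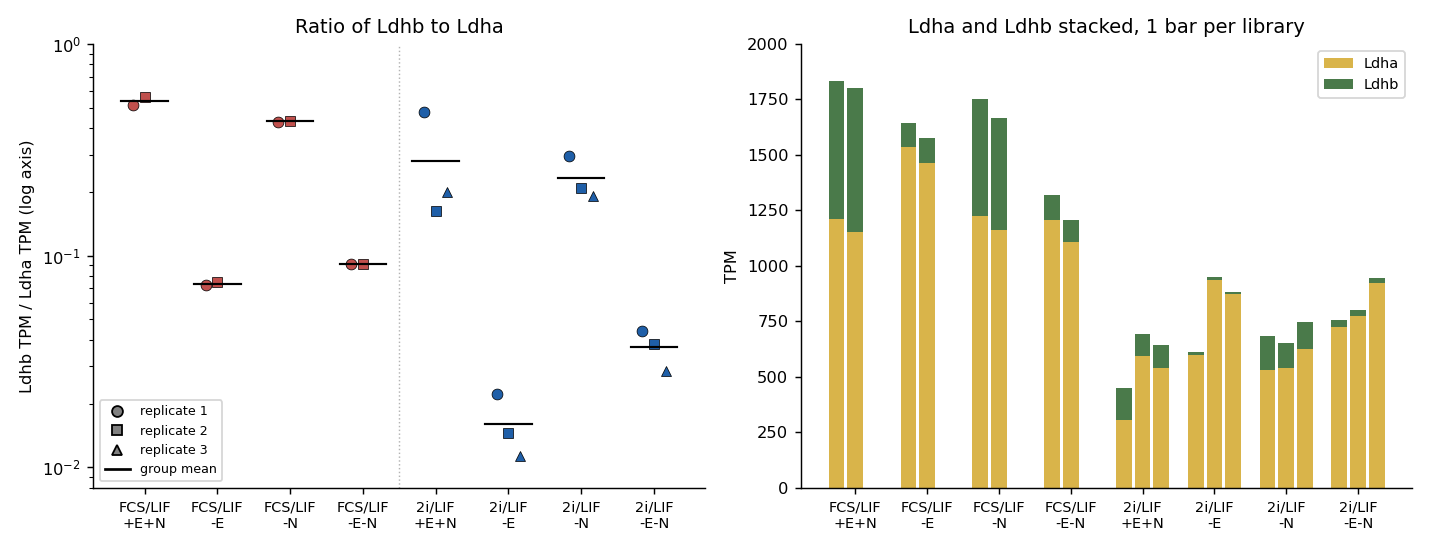
Left, ratio of Ldhb to Ldha TPM on a log axis, 1 point per library with a bar at the group mean. Right, TPM of Ldha and Ldhb stacked for each library, from replicate 1 to the last from left to right. The ratio falls from 0.514 and 0.563 to 0.0728 and 0.0748 with Esrrb loss in FCS/LIF, and the 2i/LIF +E+N library of replicate 1 stands at 0.477 while the others are at 0.163 and 0.200.

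The 2i/LIF +E+N library of replicate 1 stood apart for both genes, with the highest Ldhb and by far the lowest Ldha of its state. The number 1 library had the lowest Ldha level in 4 of 4 states in 2i/LIF, the highest Ldhb share in 4 of 4 and the highest Ldhb level in 3 of 4. It also held the lowest level of its state for 19 of 22 genes of the list from glucose uptake to pyruvate in +E+N, for 20 of 22 in -E, 13 of 22 in -N and 17 of 22 in -E-N. The part of this in the results was not tested, other than by leaving out each library. Without that +E+N library, the log2 fold change of Ldhb in -E against +E+N was -3.04 and that of Ldha 0.55, against -3.26 ± 0.21 (SE) and 0.78 ± 0.19 with all libraries, both as descriptions.

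The question of the FCS/LIF comparisons is how Esrrb, Nr5a2 and their combined loss change the pair of genes in cells in which both are abundant. Esrrb loss lowered Ldhb in FCS/LIF 6.32-fold, by a log2 fold change of -2.66 ± 0.060 (SE; edgeR quasi-likelihood test, adjusted p = 8.2e-08), which ranked 21 from the lowest among 15636 genes tested. Calls required more than 1.5-fold at an adjusted p below 0.01, and 5.76% of the genes tested met this. Ldha had a log2 fold change of 0.22 ± 0.068 (edgeR adjusted p = 0.051) and was not called. Loss of both receptors gave Ldhb -2.78 ± 0.060 against +E+N (edgeR adjusted p = 5.2e-08), with 18.8% of genes called, and Ldha -0.20 ± 0.068 (edgeR adjusted p = 0.037).

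Loss of Nr5a2 alone in FCS/LIF gave no call for either gene, in a comparison with 0.173% of genes called. That share rests on 27 genes, against 264 with DESeq2, 305 with the replicate block, 548 without a filter on low counts, 5 to 12 leaving out each library in turn and 0 with the compared states fitted alone. Ldhb had a log2 fold change of -0.37 ± 0.056 (edgeR adjusted p = 0.020), lower in 2 of 2 libraries. Its adjusted p was 8.0e-05 with DESeq2, and in edgeR 0.00086 with the replicate block and 5.7e-06 without the filter. In edgeR it was 0.094 with the compared states alone and 0.66 with all 20 libraries in a fit. Its log2 fold change ran from -0.42 to -0.30 over the alternatives, short of the 1.5-fold asked of a call. Ldha had -0.05 ± 0.068 (edgeR adjusted p = 0.80). In NrKO cells, Esrrb loss lowered Ldhb 5.30-fold, by -2.40 ± 0.059 (edgeR adjusted p = 1.7e-07), with 10.1% of genes called. Ldha had -0.15 ± 0.068 (edgeR adjusted p = 0.11) in the same comparison.

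The interaction asks whether the response to Esrrb loss depends on the Nr5a2 status. It was 0.26 ± 0.080 for Ldhb and -0.37 ± 0.096 for Ldha (edgeR adjusted p = 0.38 and 0.31), and 0.032% of genes passed it. Between the Esrrb-depleted states, -E-N against -E, Ldhb had -0.12 ± 0.058 (edgeR adjusted p = 0.18). Ldha had -0.42 ± 0.068 (edgeR adjusted p = 0.0040), lower in 2 of 2 libraries by 1.34-fold, below the fold asked of a call, which 5.05% of genes met. Ldhb was thus called in each FCS/LIF comparison of a Dox-withdrawn with a Dox-treated state, and Ldha in none of the 5 comparisons between states.

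In 2i/LIF, the comparison free of the libraries that chose the genes is Esrrb loss in NrKO cells. Ldhb fell 4.51-fold in -E-N against -N, by -2.17 ± 0.20 (SE; edgeR adjusted p = 2.6e-05), in a comparison with 6.76% of 14355 genes called, and was lower in 3 of 3 same-numbered pairs. With the replicate number as a block, 1622 genes were called instead of 970, and Ldhb had -2.16 (edgeR adjusted p = 2.4e-08). Over 21 alternatives, a fit of the compared states alone among them, Ldhb ran from -2.27 to -1.99 and stayed called. Ldha had 0.51 ± 0.19 (edgeR adjusted p = 0.085), was higher in 3 of 3 pairs and was not called. With the replicate block Ldha had 0.50 (edgeR adjusted p = 0.0101), just short of the threshold and also not called.

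Ldha was called once, in -E-N against +E+N in 2i/LIF, with 18.6% of genes called. The +E+N libraries of this contrast are also those of the contrast that chose Ldhb. Ldha rose by 0.75 ± 0.19 (SE; edgeR adjusted p = 0.0078), to a 1.69-fold higher level, and the groups did not overlap. The call was lost in 10 of the 12 fits that left out 1 library, with values of 0.53 to 0.94, the lowest without the +E+N library of replicate 1 (edgeR adjusted p = 0.011, against 9.6e-05 to 0.033 over all alternatives). Ldha in -N against +E+N had 0.24 ± 0.19 (edgeR adjusted p = 0.49), with 3.65% of genes called, or 1115 rather than 524 genes with the replicate block. As descriptions, Ldha had 0.78 ± 0.19 in -E against +E+N and -0.02 ± 0.19 in -E-N against -E.

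The other 2i/LIF contrasts of Ldhb share libraries with the one used for the choice and are described only. Ldhb had a log2 fold change of -3.26 ± 0.21 (SE) in -E against +E+N, 9.59-fold lower, where 1.55% of genes were called, or 596 rather than 223 genes with the replicate block. It had -2.03 ± 0.19 in -E-N against +E+N and 0.15 ± 0.18 in -N against +E+N. In -E-N against -E it had 1.23 ± 0.20, a 2.35-fold higher level in the cells lacking both receptors, and the groups did not overlap. The -E libraries of this contrast are those used for the choice, and it was not tested.

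**Figure D3:**
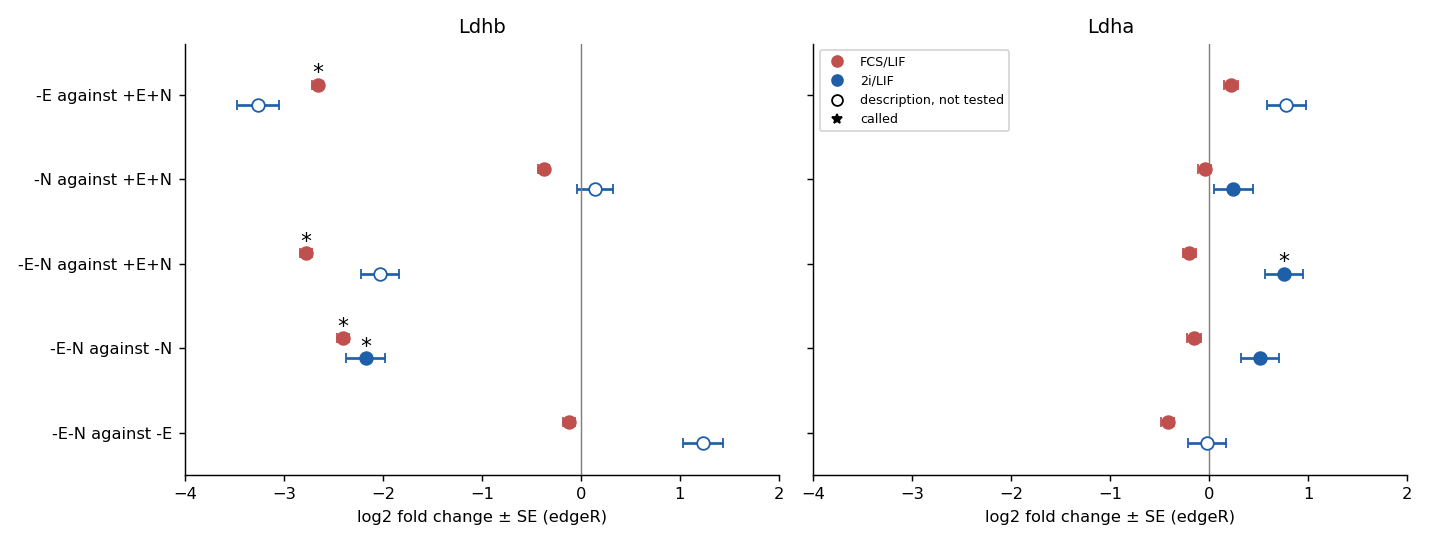
Log2 fold changes of Ldhb (left) and Ldha (right) from edgeR with their standard errors, for 5 comparisons in FCS/LIF (red) and 2i/LIF (blue). Filled points were tested, open points are descriptions, and asterisks mark calls. Ldhb is called in 3 FCS/LIF comparisons, the farthest at -2.78, and in 1 of 2i/LIF, at -2.17, and Ldha only in -E-N against +E+N in 2i/LIF, at 0.75.

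Whether the media differed in the response to Esrrb loss in NrKO cells was tested in a fit of all 20 libraries. The difference, FCS/LIF minus 2i/LIF, was -0.21 ± 0.25 for Ldhb (edgeR adjusted p = 0.74) and -0.64 ± 0.26 for Ldha (edgeR adjusted p = 0.20), and 1.74% of genes passed an adjusted p below 0.01. The Ldha response had opposite signs in the media, -0.15 and 0.51, and the difference did not pass the test.

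The genes around these enzymes are given from lists that cover pyruvate and lactate handling, 64 genes in all. In -E-N against -N, 3.49% of all genes were called lower and 6.57% higher in FCS/LIF, and 3.36% and 3.39% in 2i/LIF. Of 60 list genes tested in each medium, edgeR called 10 in FCS/LIF and 5 in 2i/LIF, beside 10.1% and 6.76% of all genes. DESeq2 called 10 and 7 of them. No list gene tested in both media (59 genes) had a log2 fold change as low as that of Ldhb in either medium. Their lowest values were -1.41 in FCS/LIF and -1.57 in 2i/LIF. Ldhb was chosen for a strong fall after Esrrb loss, so its place below the list genes is a description and not a test. In the same libraries, ES cell markers were called lower for 7 of 8 genes in FCS/LIF and 6 of 8 in 2i/LIF, and their summed level was 1382 to 1582 TPM in FCS/LIF -E-N against 2409 to 2566 in -N, and 1295 to 1747 against 2206 to 2651 in 2i/LIF. Esrrb, which the design itself lowers, is among these 8 genes, and its fall enters each of these counts and sums. It had -2.99 ± 0.14 in FCS/LIF and -1.74 ± 0.16 in 2i/LIF. Summed trophectoderm markers were at 70.6 to 95.0 against 35.7 to 46.3 TPM in FCS/LIF, and at 31.1 to 44.7 against 8.28 to 11.6 TPM in 2i/LIF. In FCS/LIF 1 of 5 was called, Gata3 (1.22 ± 0.15, higher). Most of the FCS/LIF sums was Krt7, not called there (0.89 ± 0.21, edgeR adjusted p = 0.012). In 2i/LIF 3 of 4 tested were called higher and Eomes, also a mesoderm gene, had -1.21 ± 0.31 (edgeR adjusted p = 0.017). Summed formative and primed epiblast markers were at 289 to 320 against 265 to 276 TPM in FCS/LIF, and at 65.8 to 81.4 against 49.0 to 56.2 in 2i/LIF. Most of these sums was Dnmt3b, called in neither medium (0.07 ± 0.053 and 0.43 ± 0.12), and the other members differed in direction. Otx2 was called lower in both media (-1.52 ± 0.12 and -3.64 ± 0.75, the latter at means of 0.333 TPM or less). Fgf5 (1.52 ± 0.13) and Pou3f1 (0.79 ± 0.095) were called higher in FCS/LIF. Summed mesoderm markers were at 5.31 to 6.49 against 2.63 to 2.73 TPM in FCS/LIF and overlapped in 2i/LIF. Summed neural markers were at 4.95 to 6.70 against 10.5 to 12.01 TPM in 2i/LIF and lay lower in FCS/LIF, at 64.3 to 82.2 against 83.7 to 89.9. Most of these sums was Tubb3, called in neither medium (-0.36 ± 0.12 in FCS/LIF and -1.39 ± 0.34 in 2i/LIF). In FCS/LIF, Sox1 was called higher (1.03 ± 0.14) and Pax6 lower (-0.84 ± 0.15). In 2i/LIF no neural marker was called, with -1.09 ± 0.53 for Sox1 and 0.85 ± 0.34 for Pax6. The part of these changes in cell state in the levels of Ldhb and Ldha was not tested, and in bulk samples fewer cells of a type and less RNA per cell cannot be told apart.

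The other lactate dehydrogenase genes were low throughout, and their fold changes are given for -E-N against -N. Ldhc, the testis subunit whose gene starts 19728 bp downstream of Ldha, had group means between 2.41 and 5.77 TPM and log2 fold changes of 0.32 ± 0.18 and 0.08 ± 0.17 in FCS/LIF and 2i/LIF (edgeR adjusted p = 0.20 and 0.80). Ldhd, for a D-lactate dehydrogenase, did not exceed a mean of 0.365 TPM and had -1.08 ± 0.32 in FCS/LIF (edgeR adjusted p = 0.030). Ldhal6b had its highest mean, 2.41 TPM, in 2i/LIF -E, and a log2 fold change of -0.10 ± 0.54 in 2i/LIF -E-N against -N (edgeR adjusted p = 0.93). In -E-N against -N, none of the genes of this list was called in either medium by edgeR or by DESeq2 (2 tested in each medium, 1 and 0 with an unadjusted p below 0.05). In 2i/LIF -E-N against +E+N, DESeq2 called 1 of them higher and edgeR called 0.

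Among 8 carriers of lactate and pyruvate and their partners, 6 were tested, with median log2 fold changes of 0.04 in FCS/LIF and 0.06 in 2i/LIF against 0.02 over all genes in each. In FCS/LIF none was called by edgeR or DESeq2 and 1 had an unadjusted p below 0.05. In 2i/LIF, Mpc1, a subunit of the mitochondrial pyruvate carrier, fell by 1.31 ± 0.17 (SE; edgeR adjusted p = 0.00027), from 63.3 ± 4.39 to 26.1 ± 2.23 TPM (SD, n = 3). Of the 13 genes of pyruvate dehydrogenase, its kinases and phosphatases, and pyruvate carboxylase, 2 fell in FCS/LIF, with a list median of -0.32. These were the pyruvate dehydrogenase kinases Pdk1 (-1.11 ± 0.099, edgeR adjusted p = 0.00011) and Pdk4 (-1.02 ± 0.20, edgeR adjusted p = 0.0060, at a mean of 1.24 TPM or less), enzymes that restrain the entry of pyruvate into the mitochondrial cycle. In 2i/LIF edgeR called none of the 13, 6 had an unadjusted p below 0.05, DESeq2 and the replicate block each called 1, and the list median was -0.14.

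The 22 genes from glucose uptake to pyruvate had medians of -0.14 in FCS/LIF and 0.21 in 2i/LIF, with 2 called lower and 1 higher in FCS/LIF and 1 in each direction in 2i/LIF, or 2 in each direction with the replicate block. Hk1, a hexokinase that starts glucose breakdown, fell in both media, by 0.63 ± 0.068 and 1.25 ± 0.10 (SE; edgeR adjusted p = 0.00030 and 1.6e-05). Pfkp, the platelet form of phosphofructokinase, fell in FCS/LIF by 1.41 ± 0.094 (edgeR adjusted p = 2.4e-05) and had -1.45 ± 0.47 in 2i/LIF (edgeR adjusted p = 0.046). Of the enzymes that set the level of fructose 2,6-bisphosphate, an activator of phosphofructokinase, Pfkfb3 rose in FCS/LIF (0.79 ± 0.090, edgeR adjusted p = 0.00039) and Pfkfb2 in 2i/LIF (0.60 ± 0.12, edgeR adjusted p = 0.0036).

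Of 11 genes of the malate-aspartate and glycerol phosphate shuttles and alanine transaminases, which like lactate dehydrogenase serve the balance of NADH or draw on pyruvate, 4 were called lower from counts in FCS/LIF and 2 in 2i/LIF, and none was called higher. Over all genes, 3.49% and 3.36% were called lower. Gpt2, the mitochondrial alanine transaminase, fell by 1.197 ± 0.15 in FCS/LIF and 1.097 ± 0.18 in 2i/LIF (SE; edgeR adjusted p = 0.00056 and 0.0015). Got1, the cytosolic aspartate transaminase, fell by 0.64 ± 0.051 and 0.76 ± 0.064 (edgeR adjusted p = 5.9e-05 and 1.7e-05). The aspartate-glutamate carrier Slc25a13 fell in FCS/LIF by 0.62 ± 0.071 (edgeR adjusted p = 0.00041) and had -0.55 ± 0.057 in 2i/LIF. For the related carrier Slc25a12 the units differed. Its counts gave -0.75 ± 0.11 in FCS/LIF (edgeR adjusted p = 0.0013), whereas its level over 2 libraries each (mean ± SD) was 19.5 ± 0.325 TPM for -N but 24.6 ± 19.3 TPM for -E-N. The -E-N libraries thus disagreed in TPM, and no direction is given. The list medians were -0.13 and -0.16. Of 7 regulators of lactate dehydrogenase or mitochondrial genes, 6 were tested. Mycn, a Myc family factor, fell in FCS/LIF by 0.66 ± 0.055 (edgeR adjusted p = 7.0e-05) and had -0.05 ± 0.19 in 2i/LIF, where edgeR called none, 4 had an unadjusted p below 0.05, and DESeq2 and the replicate block each called 1.

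**Figure D4:**
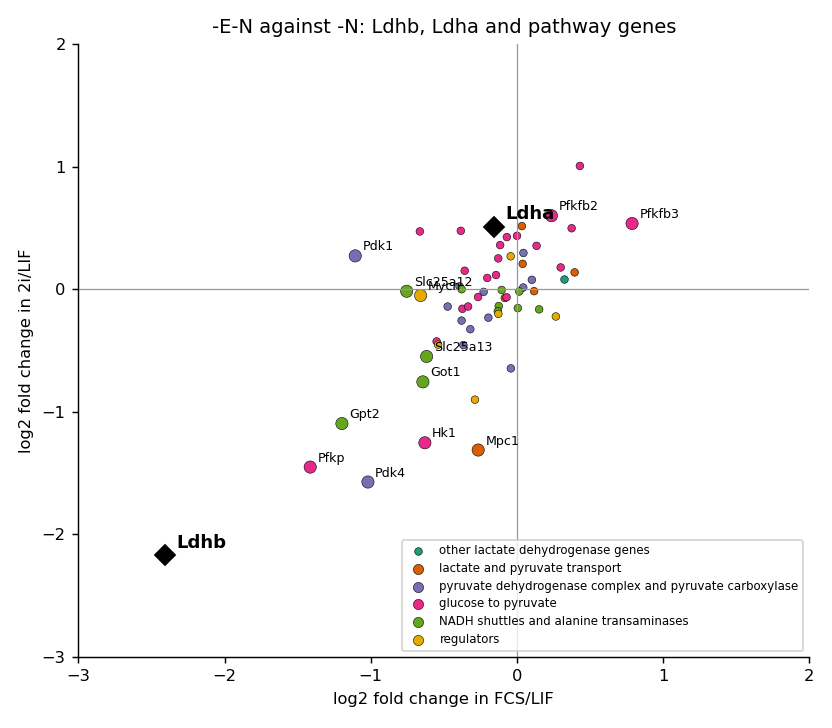
Log2 fold changes in -E-N against -N, in FCS/LIF (horizontal) and 2i/LIF (vertical), of Ldhb and Ldha (black diamonds) and of the 59 pathway genes tested in both media, coloured by list, with larger labelled points for those called in either medium. Ldhb, chosen for a strong fall after Esrrb loss, lies at -2.40 and -2.17, below every pathway gene in both directions, and Ldha at -0.15 and 0.51.

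With Esrrb loss in FCS/LIF cells with intact Nr5a2 alleles, the same lists gave 6 calls among 60 genes tested, beside 5.76% of all genes. These were 3 calls among the 22 genes from glucose to pyruvate (1 higher and 2 lower), 2 lower among the 11 shuttle and transaminase genes, 1 lower among the 13 pyruvate dehydrogenase genes, and none among the carriers, the regulators and the other lactate dehydrogenases, where DESeq2 called none and 3 of 6, 2 of 6 and 0 of 2 had an unadjusted p below 0.05. List medians lay between -0.18 and 0.03, against -0.003 over all genes. Loss of Nr5a2 alone in FCS/LIF gave no call in any of the 6 lists by edgeR or DESeq2, with 12 of 60 genes tested at an unadjusted p below 0.05. With 0.173% of all genes called there by edgeR, this count says nothing about the lists.

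The neighbourhood of Ldhb holds 11 annotated genes whose starts lie within 250 kb of its own, of which 7 were tested in FCS/LIF and 4 in 2i/LIF. The nearest gene downstream, Gys2, for liver glycogen synthase, reached at most 3 counts in any library and was not tested. The nearest upstream gene, Kcnj8, for a potassium channel, had -0.07 ± 0.42 in FCS/LIF -E-N against -N (edgeR adjusted p = 0.91). In that comparison Slco1a5, an organic anion transporter, was called higher (3.88 ± 0.64, edgeR adjusted p = 0.0025) from at most 32 counts in any library. The abundant neighbours Cmas, Golt1b, Recql and Pyroxd1 had log2 fold changes from -0.22 to 0.07 in that comparison, and from -0.19 to 0.07 in its 2i/LIF counterpart. In 2i/LIF edgeR and DESeq2 called none of the 4, and 2 had an unadjusted p below 0.05. Around Ldha, 29 genes were annotated, and none was called by edgeR or DESeq2 among the 11 tested in FCS/LIF and the 9 in 2i/LIF, with 2 at an unadjusted p below 0.05 in each medium.

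**Figure D5:**
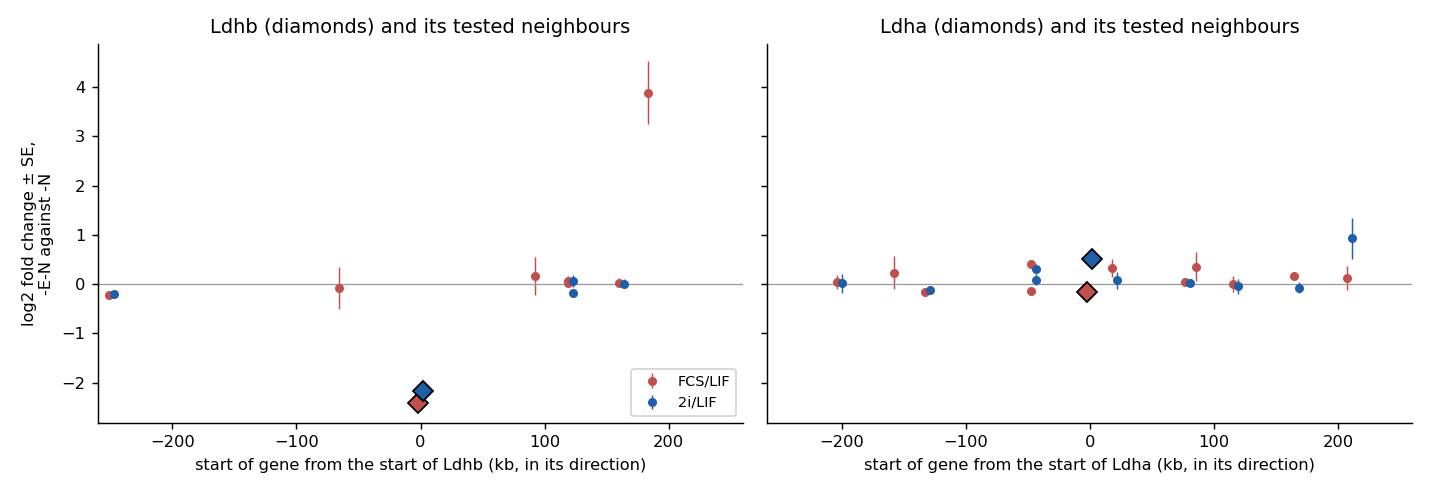
Log2 fold changes with standard errors in -E-N against -N for Ldhb (left) and Ldha (right), drawn as diamonds at 0, and for their tested neighbours by the distance between gene starts in kb, in FCS/LIF (red) and 2i/LIF (blue). Ldhb stands at -2.40 and -2.17 among neighbours mostly near 0, and the high point is Slco1a5 at 3.88.

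Near-identical copies could draw reads from either gene. At 90% identity or more over 300 bases or more, Ldhb had 1 processed pseudogene, Gm5514 (98.0% over 1002 bases), and Ldha had 11, led by Gm5452 (95.9% over 997 bases). In all 20 libraries the summed counts of these copies stayed at or below 0.0442% of the Ldhb count and 0.0849% of the Ldha count, so that splits between copies as counted are small against the changes of Ldhb.

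The genes whose pattern was most like each member were named by Pearson correlation of log2 CPM (counts scaled to library size) over the 20 libraries, among 11636 genes. These are descriptions, and the libraries share medium and state. For Ldhb they were Umps (0.93), Plin3 (0.92), Ryr2 (0.91), Dcaf12l1 (0.90) and Fmr1 (0.90). Umps, a pyrimidine synthesis enzyme, had group means of 70.0 TPM in FCS/LIF +E+N, 50.0 in -E, 39.5 in 2i/LIF +E+N and 28.7 in -E, a narrower range than that of Ldhb. With each medium centred on its own mean, the set changed to Epha4 (0.98), Ccnb2 (0.97), Vangl1 (0.94), Echs1 (0.93) and Nlrp4f (0.92), with 0 genes in common. Epha4, an ephrin receptor, was at 11.7 TPM in FCS/LIF +E+N and 2.77 in -E, and at 9.66 in 2i/LIF +E+N and 1.62 in -E.

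For Ldha the most similar genes were Pfkl (0.96), Prob1 (0.94), Klk8 (0.93), Slc23a1 (0.93) and Hif3a (0.92). Pfkl, the liver form of phosphofructokinase, was at 89.99 ± 2.40 TPM in FCS/LIF +E+N and 129 ± 3.49 in -E (SD, n = 2), and at 41.3 ± 14.4 in 2i/LIF +E+N and 63.4 ± 21.0 in -E (n = 3). With each medium centred, Pfkl remained among the 5 (0.89), beside Rcn3, Ankrd37, Bnip3 and Pgk1. The correlation between Ldhb and Ldha was 0.17 over all libraries and -0.63 with each medium centred. With Esrrb the centred correlation was 0.66 for Ldhb and -0.27 for Ldha, and with Nr5a2, whose counts include the disrupted transcript, it was 0.75 and -0.41.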

How the data were processed

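Poly(A) RNA-seq libraries of 20 samples were used, from a stranded paired-end protocol; the ChIP-seq samples were not analysed here. The authors aligned reads to mm10 with STAR and estimated counts per gene with RSEM (per the labels and the study's methods), and these expected counts were deposited as whole numbers. The authors' TPM values came from the same quantification; versions and the use of strand in counting are not given in the sources used here. The submitters' processing notes also name Bowtie2. ERCC spike-in rows (92) were left out.

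Expected counts were tested per medium with edgeR (4.0.16, TMM scaling, quasi-likelihood test; a gene entered when every replicate of some state reached 20 counts; Benjamini-Hochberg adjustment), with all 4 states in a fit. Calls required an adjusted p below 0.01 and more than 1.5-fold, except for interactions and media differences, which required the adjusted p alone. Levels and ratios used TPM, as levels are compared between genes only per length, and ratios were tested by exact permutation in scipy (1.17.1). DESeq2 (1.42.0) and limma (3.58.1) served as alternatives. Scripts were tested on simulated data.

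The members and lists were chosen with earlier results of these data known. List genes were named where called in -E-N against -N in either medium, at most 4 per list, plus all members of lists of 6 or fewer; neighbours lay within 250 kb, copies matched at 90% identity over 300 bases, and likeness was taken over genes tested in both media whose mean count reached 100, 5 per member. Same-numbered 2i/LIF libraries deviated together (correlations of deviations from group means 0.20 to 0.48 for -N with -E-N, 0.24 to 0.53 for +E+N with -E and 0.21 to 0.63 for +E+N with -N), so the numbers pair these states by the data; +E+N with -E-N did not pass this check (from -0.0027). The study describes its RNA-seq replicates as independent experiments, and the labels give only their numbers. Counts limit the precision of Ldhb mainly in 2i/LIF -E.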

Additional observations from a re-analysis of the deposited data

How the results depend on the processing

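Every tested fold change of Ldhb kept its direction, and its call or lack of a call, under all alternatives run. Its adjusted p in FCS/LIF -N against +E+N did depend on the processing. There it fell below 0.01 with DESeq2, the replicate block and no filter on low counts, and only the 1.5-fold limit withheld the call. The 5 ratio differences tested kept their direction, and their tests were not repeated. Ldha depended more on the processing. In 2i/LIF, -E-N against +E+N, it lost its call at 0.7978 and 0.7991 (limma on log2 TPM with pseudocounts of 1 and 0.1) and at 0.753 (compared states alone). Leaving out each library gave 0.5275 to 0.944, and the call was lost in 10 of 12 such fits but kept without +E+N replicate 2 and without -E replicate 1. In FCS/LIF, -N against +E+N, its direction turned to 0.0146 and 0.01461 in the limma fits and ranged from -0.1155 to 0.0329 leaving out each library. Without a filter on low counts, the Ldha interaction in FCS/LIF (-0.382) and media difference (-0.6804) passed the threshold. The cause was not tested.

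Counts of genes called moved as follows. In FCS/LIF, -E against +E+N gave 1631 genes with no filter, 503 and 379 with the limma fits, and 445 with all 20 libraries in a fit, against 901; leaving out each library gave 314 to 963. For -N against +E+N, 27 became 264 (DESeq2), 548 (no filter), 4 and 5 (limma), 0 (compared states alone) and 17 (all 20 libraries), and 5 to 12 leaving out each library. For -E-N against +E+N, 2934 ranged from 1812 to 3076 leaving out each library. For -E-N against -N, 1573 became 2556 (no filter), 1030 and 879 (limma) and 920 (all 20 libraries), and ranged from 679 to 1668. For -E-N against -E, 790 became 1571 (no filter), 373 and 61 (limma) and 437 (all 20 libraries), and ranged from 84 to 897. In 2i/LIF, -E against +E+N, 223 became 447 (DESeq2), 401 (no filter), 126 and 105 (limma) and 351 (all 20 libraries), and ranged from 87 to 251. For -N against +E+N, 524 became 860 (DESeq2), 828 (no filter), 300 and 291 (limma) and 792 (all 20 libraries), and ranged from 243 to 569. For -E-N against -N, 970 became 642 and 588 (limma), and ranged from 510 to 998.

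With the replicate number as a block, 596, 1115 and 1622 genes were called in 2i/LIF in -E against +E+N, -N against +E+N and -E-N against -N, and in FCS/LIF 305 in -N against +E+N and 1265 in -E-N against -E. In FCS/LIF, with 2 pairs, the libraries share only a number (correlations of 0.0921 to 0.4854). The block changed no call of Ldhb or Ldha.

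Fits without 1 FCS/LIF library assume that the lone sample of a state varies like the other groups. With 2 or 3 libraries per state, the permutation tests of the ratio cannot go below p = 0.333 and 0.1. In TMM-scaled CPM the order of Ldhb levels was the same as in TPM, and 4 of 8 ranks of Ldha differed. Overlaps between neighbours in the order changed as well. In CPM the Ldhb step from FCS/LIF -E to -E-N was free of overlap. So were the Ldha steps from FCS/LIF -N to -E-N and from 2i/LIF -E-N to -N.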
